A study of Trichoderma reesei with 24 samples.

Results

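In 117 of the 8755 genes of the deposited *Trichoderma reesei* table, the Δ*nsd3* strain had more transcript than WT in at least 1 growth condition and less in another. A gene was taken as higher in a condition when the difference of the strains' means of log2(TPM + 1), the Δ*nsd3* strain minus WT, was 1 or more and no WT library reached the lowest of the 3 Δ*nsd3* libraries. It was taken as lower when the difference was −1 or less and the libraries were separated the other way. TPM is a transcript level corrected for gene length and for the total of the library. The strain differences therefore chose the genes, and they are given below as a description, each with the standard error (SE) of the difference of 3 libraries from 3, and with no test.

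*T. reesei* is a saprophytic filamentous fungus that secretes cellulases when it grows on cellulose. Glucose represses many of these genes through carbon catabolite repression, while glycerol neither induces nor strongly represses them and is often used for pregrowth. Nsd3 is a transcription factor homologous to NsdC of *Aspergillus nidulans*, which takes part in sexual and asexual development there.

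The reference strain, called WT here, was TU6, which descends from QM9414 and needs uridine. The Δ*nsd3* strain was made in TU6 by CRISPR-Cas9 with *pyr4* in place of *nsd3*, so every Δ*nsd3* library also carries the *pyr4* marker, and the effects of *nsd3* loss and of the marker cannot be told apart. The study used a single transformant in most of its experiments. Mycelia of both strains were collected after 24 h on glucose, after 24 h on glycerol, and 8 h or 48 h after transfer to cellulose from 24 h of pregrowth on glycerol, and polyadenylated RNA was sequenced in 3 libraries for each of the 8 groups. *nsd3* (TRIREDRAFT_75672) had between 32.2 and 278 TPM in the WT libraries and at most 2.42 TPM in the Δ*nsd3* libraries.

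Sequencing depth, which the spacing of low TPM values gives approximately, was 18.2 to 45.8 M reads in 23 libraries. The exception, Δ*nsd3* replicate 3 on glycerol, was deeper, at 239 M reads. The hydrophobin gene *hfb2* held 7.72% to 15.6% of the TPM of WT libraries on glycerol and cellulose, but 2.40% to 6.37% in the Δ*nsd3* strain there, and at most 0.254% on glucose. The median strain difference over the 7933 genes tested was −0.16 on glucose, 0.29 on glycerol, −0.15 at 8 h, and 0.03 at 48 h, and each was within 0.02 of 0 after rescaling by the median of ratios. Replicate 2 of WT at 48 h stood apart, with correlations across genes of 0.948 and 0.942 with replicates 1 and 3, whereas the lowest in any of the other 7 groups was 0.984.

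With TPM as deposited, the commonest arrangement was lower on glucose and higher on cellulose, a ranking that depended on scaling, as given below. Of the 117 genes, 67 were lower in the Δ*nsd3* strain on glucose, where 5.88% of all genes met the same limits, and 16 were higher, against 2.84%. On glycerol 27 were higher (6.73% of all genes) and 20 lower (2.75%). After 8 h on cellulose 37 were higher (8.22%) and 21 lower (7.33%), and after 48 h 60 were higher (8.2%) and 24 lower (3.71%). The rule used these contrasts, so nothing is read from the shares. In bulk RNA, fewer cells that express a gene and less RNA per cell cannot be told apart.

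**Figure D1:**
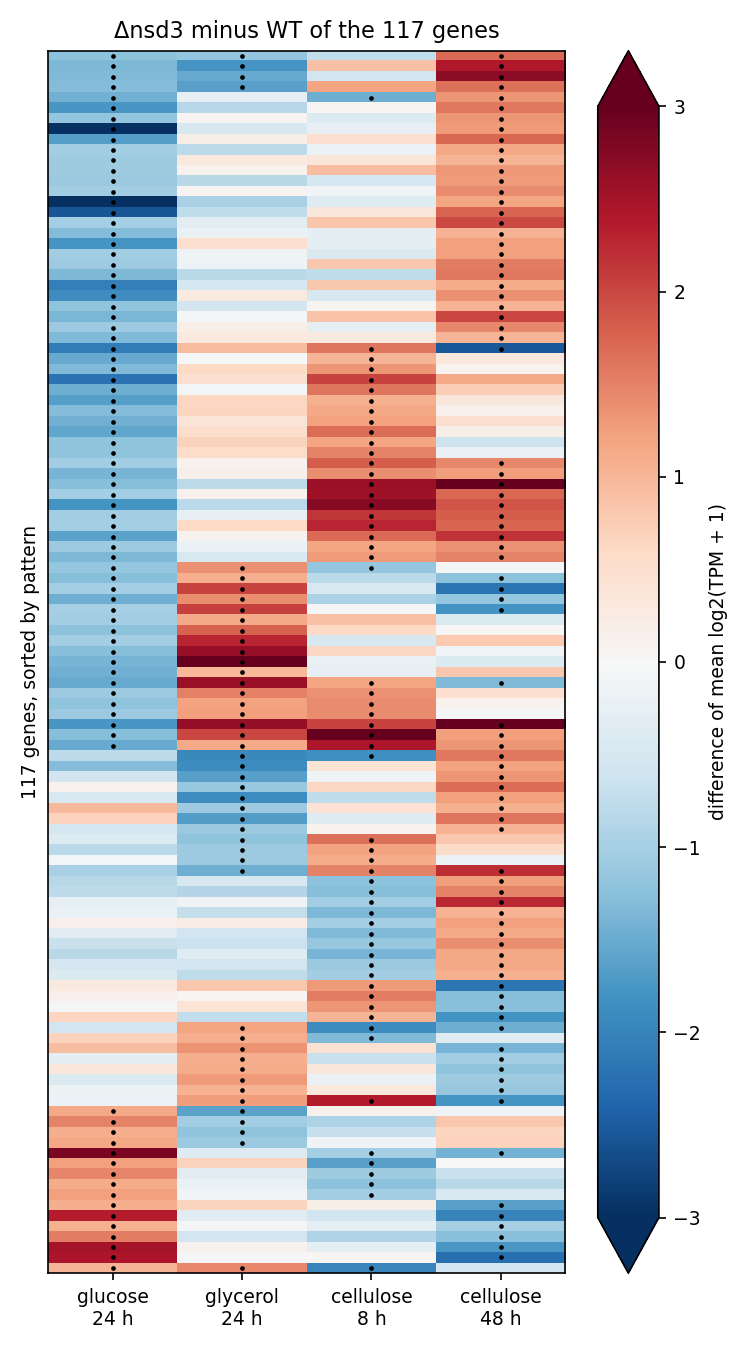
Strain difference (color, Δ*nsd3* minus WT in mean log2(TPM + 1)) of the 117 genes (rows) in 4 growth conditions (columns). A dot marks a difference that met the limits. The upper rows are the 67 genes that were lower on glucose, each by the rule with a red field on cellulose or glycerol.

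Grouped by the condition in which the Δ*nsd3* strain was higher and the one in which it was lower, 41 genes were higher at 48 h and lower on glucose, 28 higher at 8 h and lower on glucose, and 18 higher on glycerol and lower on glucose. A further 13 were higher at 48 h and lower on glycerol, and 12 were higher on glycerol and lower at 48 h. Between the cellulose times, 12 genes were higher at 48 h and lower at 8 h, and 7 the reverse. With TPM as deposited, cellulose over glucose thus had the 2 largest pairs, and pairs without glucose held 13 genes at most. Higher values on glucose were met with lower ones at 48 h in 7 genes, at 8 h in 6, and on glycerol in 4. The remaining pairs, glycerol over 8 h and 8 h over glycerol, had 4 genes each. A gene with several pairs is counted under each, so the 117 genes gave 156 combinations, and 83 genes were higher in 1 condition and lower in 1. Of the 34 genes counted in more conditions, 4 met the limits in all 4.

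The pairs that involve glycerol or 48 h depended on scaling and on 1 library. After rescaling by the median of ratios the set held 115 genes, 82 of them shared, but the genes higher at 48 h and lower on glycerol numbered 36 instead of 13 and became the largest pair, those higher at 8 h and lower on glycerol 18 instead of 4, and those higher on glucose and lower on glycerol 15 instead of 4. In the opposite direction, genes higher on glycerol and lower on glucose numbered 7 instead of 18, those higher on glycerol and lower at 48 h 5 instead of 12, and those higher at 48 h and lower on glucose 25 instead of 41. Leaving out *hfb2* and rescaling the rest, chosen after seeing the data, gave 11 genes for glucose over 8 h instead of 6, 7 instead of 4 for glucose over glycerol and for glycerol over 8 h, and 14 for 48 h over glycerol. WT replicate 2 at 48 h was the lowest WT library in 51 of the 60 genes higher in the Δ*nsd3* strain at 48 h. Without it 32 of the 60 still met the limits and the median difference of the 60 was 1.06 instead of 1.36, and the pair of 48 h over glucose held 26 genes, that of 48 h over 8 h 3. The pair of 8 h over glucose was less affected, with 24 genes after rescaling and 28 without that library.

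**Figure D2:**
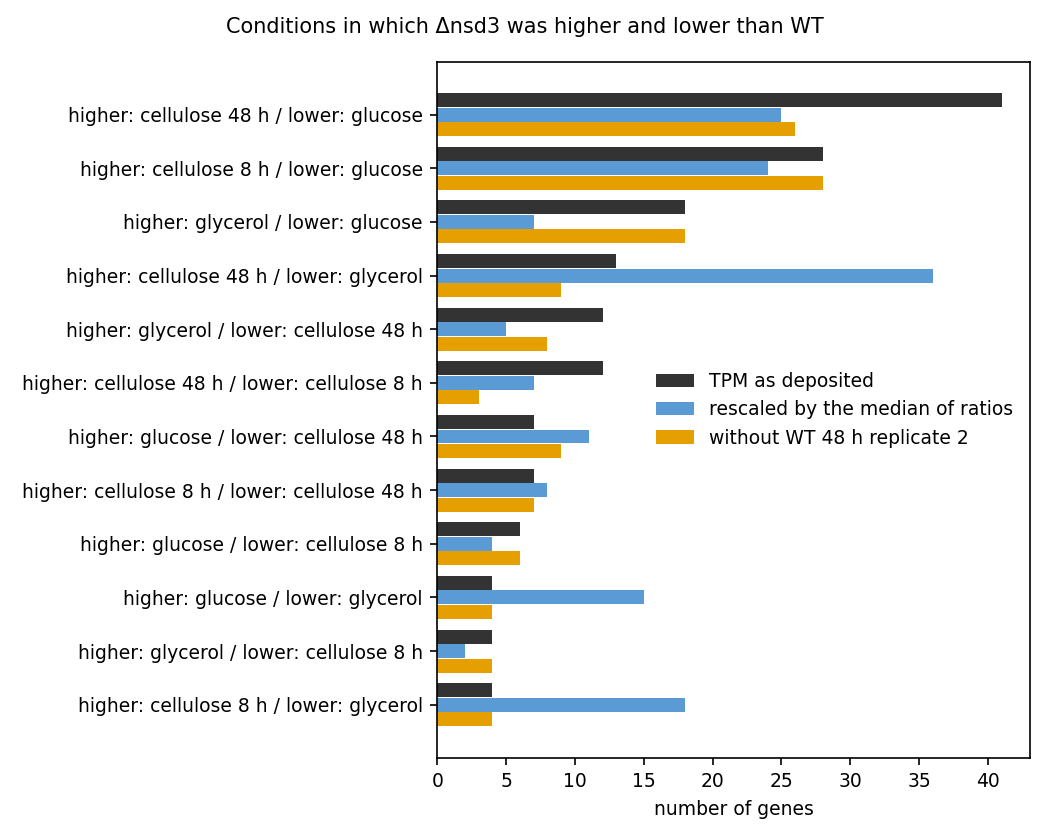
Number of genes (horizontal axis) for each pair of conditions in which the Δ*nsd3* strain was higher and lower than WT. Black bars use TPM as deposited, blue bars TPM rescaled by the median of ratios, and orange bars leave out replicate 2 of WT at 48 h: the pair of 48 h over glycerol goes from 13 to 36 genes with rescaling, and that of 48 h over 8 h from 12 to 3 without the library.

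The gene names and RefSeq entries used here give a symbol to 3 of the 117 genes and a product to none, so the set could not be ordered by function, and most genes are named by their identifiers only. The lists of transporters, carbohydrate-active enzymes, proteases, and other functions that had been drawn up from product names matched 0 of the 8755 identifiers. The genes are therefore ordered by the conditions in which the strains differed.

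A total of 56 genes were lower in the Δ*nsd3* strain on glucose and higher on cellulose, 13 of them at both times. The clearest case with a symbol was *cro1* (TRIREDRAFT_124282). On glucose it had 383, 321, and 195 TPM in the 3 WT libraries and 48.2, 50.2, and 46.4 in the Δ*nsd3* libraries. After 48 h the libraries had 23.7, 10.9, and 37.8 TPM in WT and 69.5, 72.8, and 82.5 in Δ*nsd3*. The WT libraries thus lay above the Δ*nsd3* libraries on glucose and below them at 48 h, with differences of −2.56 ± 0.29 and 1.75 ± 0.50, the latter 1.29 without WT replicate 2. In WT the level was lower in each further condition from glucose to glycerol, 8 h, and 48 h, whereas the Δ*nsd3* libraries stayed between 46.4 and 92.2 TPM throughout.

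TRIREDRAFT_60616 had the largest difference of the 117 genes in a single condition. At 8 h its WT libraries had 5.77, 4.89, and 9.46 TPM and its Δ*nsd3* libraries 103, 205, and 140.1, a difference of 4.27 ± 0.38 on the log2 scale. On glucose WT had 148, 131, and 138 TPM and the Δ*nsd3* strain 60.9, 55.6, and 55.2, a difference of −1.27 ± 0.07. It was also higher on glycerol (1.99 ± 0.34) and at 48 h (1.22 ± 0.57), but the last fell short of the limit without WT replicate 2, at 0.71. In both conditions given by library the strains did not overlap, as the rule requires. WT was lowest at 8 h, while the Δ*nsd3* strain was highest there.

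The genes higher at both times on cellulose included some of the most abundant. TRIREDRAFT_46285 had 67.4, 161, and 266 TPM in WT at 8 h and 1181, 685, and 1045 in Δ*nsd3*. On glucose the order was the reverse, with 521, 473, and 392 TPM in WT and 124, 114, and 164 in Δ*nsd3*. Its differences were −1.79 ± 0.20 on glucose, 2.72 ± 0.62 at 8 h, and 1.89 ± 0.60 at 48 h. The WT libraries at 8 h were spread over a wide range, by the rule without reaching the Δ*nsd3* libraries. On glycerol, where WT had 1663, 1808, and 1766 TPM, the difference was −0.80 ± 0.29 and was not counted.

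TRIREDRAFT_123648 repeated this order at lower levels. Its WT libraries had 101, 113, and 103 TPM on glucose and 5.46, 0.932, and 11.1 at 48 h. The Δ*nsd3* libraries had 43.5, 46.0, and 40.1 TPM on glucose and 26.2, 42.8, and 69.1 at 48 h. WT replicate 2 was lowest at 48 h, and the difference there was 3.04 ± 0.87 with it and 2.31 without. At 8 h the difference was 2.57 ± 0.54, and on glucose −1.27 ± 0.08. TRIREDRAFT_62985 and its neighbour TRIREDRAFT_48819 were also lower on glucose (−1.61 and −1.03) and higher at 8 h (1.70 and 2.15) and 48 h (2.16 and 1.82). TRIREDRAFT_48819 dropped out of the set when Δ*nsd3* replicate 2 or WT replicate 2 on glucose was left out.

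Other genes met the limits at only 1 cellulose time. TRIREDRAFT_121405 had 113, 101, and 175 TPM in WT on glucose and 24.1, 33.5, and 22.9 in Δ*nsd3*. At 8 h WT had 11.7, 4.46, and 4.03 TPM and the Δ*nsd3* strain 33.3, 30.2, and 20.6. The differences were −2.21 ± 0.29 and 2.02 ± 0.47, and at 48 h, where the libraries overlapped, 1.13 ± 0.46. TRIREDRAFT_123261 had the largest negative difference of the set, −3.99 ± 0.49 on glucose, with 37.9, 23.9, and 11.2 TPM in WT and 0.426, 0.354, and 0.519 in Δ*nsd3*. At 48 h levels were 4.60, 3.53, and 4.63 TPM in WT and 12.4, 7.62, and 13.7 in Δ*nsd3*, a difference of 1.19 ± 0.26. The other genes of this arrangement had differences between −1.02 and −3.56 on glucose.

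**Figure D3:**
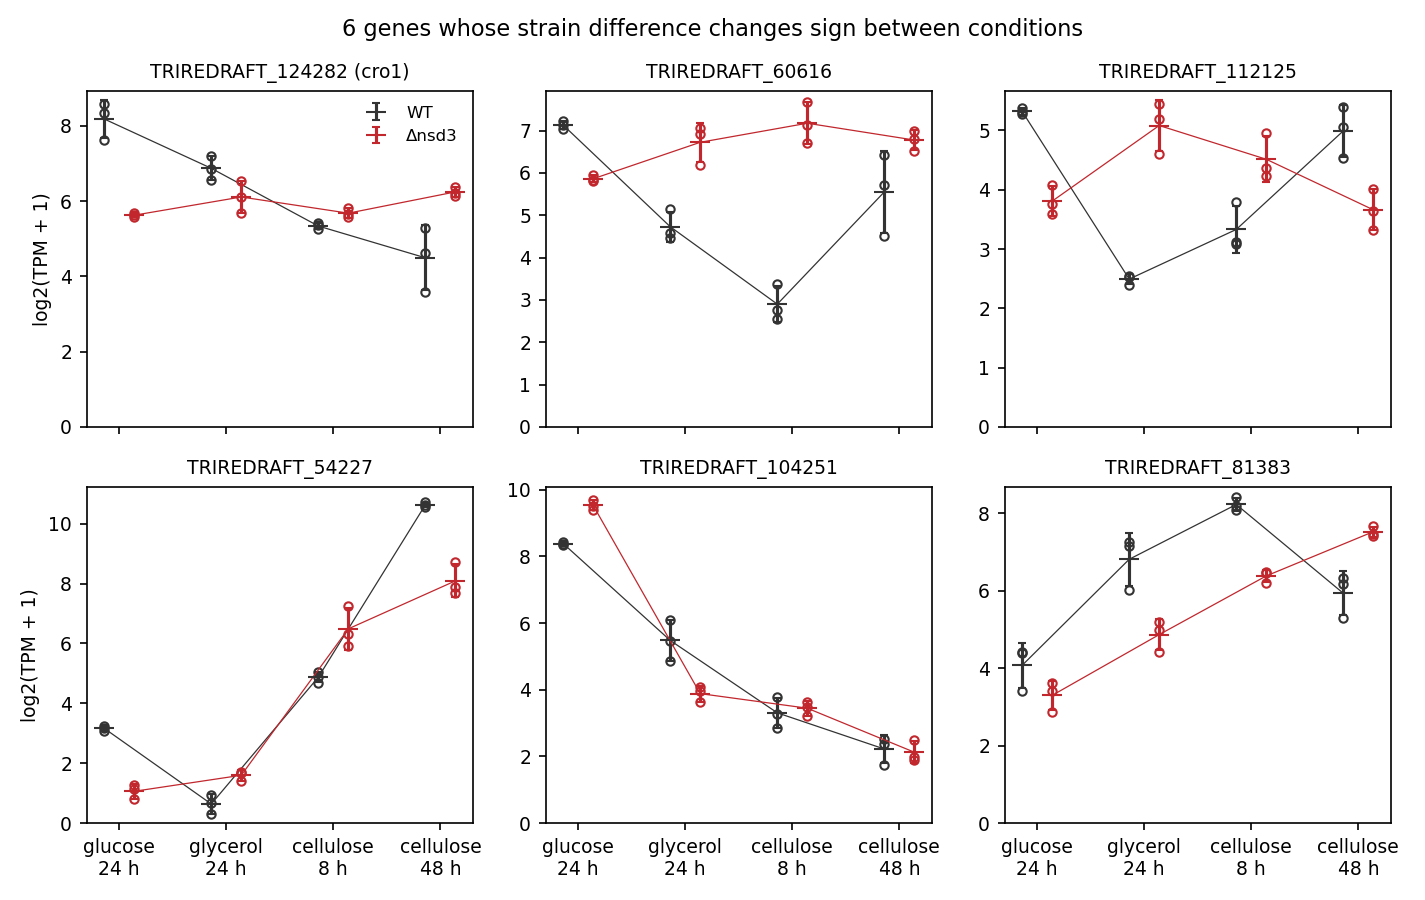
Level of 6 genes as log2(TPM + 1) (vertical axis) in each growth condition (horizontal axis). Open circles are libraries, horizontal marks with bars the mean and SD of 3, black WT and red the Δ*nsd3* strain: in *cro1* (TRIREDRAFT_124282) the lines cross between glycerol and 8 h, and in TRIREDRAFT_112125 the strains change places, with WT higher on glucose and at 48 h and lower between.

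The 18 genes higher on glycerol and lower on glucose were led by TRIREDRAFT_111442. Its WT libraries had 147, 139.7, and 133 TPM on glucose and 1.72, 1.70, and 2.01 on glycerol. The Δ*nsd3* libraries had 53.5, 35.6, and 35.7 TPM on glucose and 10.2, 15.6, and 26.9 on glycerol. The strains were apart in all 4 conditions, with differences of −1.75 ± 0.19 on glucose, 2.63 ± 0.38 on glycerol, 2.03 ± 0.28 at 8 h, and 3.11 ± 0.37 at 48 h. Outside glucose every WT library was at or below 2.29 TPM.

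TRIREDRAFT_112125 met the limits in all 4 conditions and changed direction between glycerol and 48 h. On glycerol WT had 4.28, 4.77, and 4.87 TPM and the Δ*nsd3* strain 23.3, 42.6, and 35.7. At 48 h WT had 32.1, 22.1, and 41.2 TPM and the Δ*nsd3* strain 11.5, 15.2, and 9.03. The differences were −1.51 ± 0.15 on glucose, 2.59 ± 0.26 on glycerol, 1.18 ± 0.32 at 8 h, and −1.33 ± 0.32 at 48 h. WT was thus low where the Δ*nsd3* strain was high and high where it was low. TRIREDRAFT_68279 and TRIREDRAFT_82204 had the same order apart from 8 h. TRIREDRAFT_68279 had 4.002, 5.83, and 4.60 TPM in WT on glycerol against 18.3, 23.2, and 27.4 without *nsd3*. For 48 h the values were 56.3, 53.1, and 50.3 TPM in WT and 13.8, 10.5, and 8.98 without *nsd3*. Its differences were 2.04 ± 0.21 and −2.19 ± 0.17, and the corresponding values of TRIREDRAFT_82204 were 2.06 ± 0.17 and −1.80 ± 0.41.

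TRIREDRAFT_76247 had the largest difference on glycerol, 3.35 ± 0.13, with 52.3, 55.1, and 46.7 TPM in WT and 483, 506, and 613 in Δ*nsd3*. On glucose it was lower in the Δ*nsd3* strain (−1.38 ± 0.16). Its neighbour in the set, TRIREDRAFT_76249, was just inside the limit on glycerol (1.001) and was lost after any of 4 libraries was left out. Of the genes named here, TRIREDRAFT_111442, TRIREDRAFT_112125, TRIREDRAFT_68279, TRIREDRAFT_82204, and TRIREDRAFT_76247 stayed in the set after rescaling by the median of ratios.

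Between the times on cellulose, 7 genes were higher at 8 h and lower at 48 h without *nsd3*. They included TRIREDRAFT_54219, a CE5 acetyl xylan esterase, which removes acetyl groups from xylan. At 8 h it had 208, 167, and 103 TPM in WT and 771, 331, and 344 in Δ*nsd3*. The levels at 48 h were 14.6, 12.02, and 16.6 TPM in WT and 3.01, 9.81, and 4.80 in Δ*nsd3*. The differences were 1.53 ± 0.50 and −1.28 ± 0.44, and leaving out Δ*nsd3* replicate 1 at 48 h removed it from the set. It was listed at 0 in all 6 WT libraries on glucose and glycerol, and the strain difference met the limits in neither condition. The paper, which modeled counts, names it among the most upregulated genes of the Δ*nsd3* strain on glucose. Both strains had far less of this transcript at 48 h than at 8 h, with a log2 change over both of −4.74 ± 0.21 (SE, limma adjusted p = 2.6e-14).

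TRIREDRAFT_54227 was the most abundant gene of this order at 48 h. It had 1562, 1515, and 1679 TPM in WT then and 418, 235, and 203 in Δ*nsd3*. At 8 h WT had 28.5, 24.9, and 32.0 TPM and the Δ*nsd3* strain 58.9, 151, and 78.3. The differences were 1.61 ± 0.41 at 8 h and −2.54 ± 0.32 at 48 h, and on glucose −2.10 ± 0.15. The Δ*nsd3* strain was thus ahead at 8 h and behind at 48 h, at both times without overlap, as the rule requires. TRIREDRAFT_54694 had 5.90, 3.36, and 3.98 TPM in WT at 8 h and 18.6, 25.7, and 39.0 in Δ*nsd3*, a difference of 2.37 ± 0.36. The reverse held at 48 h, with 95.7, 61.0, and 88.7 TPM in WT at 48 h and 25.3, 23.5, and 19.7 in Δ*nsd3*, a difference of −1.78 ± 0.22. The fourth example, TRIREDRAFT_103015, had differences of 1.29 ± 0.19 and −2.18 ± 0.20.

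The opposite order, lower at 8 h and higher at 48 h, was found in 12 genes and rested largely on 1 library. TRIREDRAFT_108284 had 18.6, 2.35, and 18.5 TPM in WT at 48 h and 31.5, 25.7, and 31.0 in Δ*nsd3*, so that WT replicate 2 was far below the other WT libraries. Its difference was 1.48 ± 0.85 with that library and 0.63 without it. TRIREDRAFT_23115 also left the set without it. TRIREDRAFT_81383, in contrast, kept a difference of 1.27 at 48 h. It had 289.6, 339, and 271 TPM in WT at 8 h and 87.3, 88.4, and 72.5 in Δ*nsd3*, but 80.04, 38.1, and 71.1 TPM in WT at 48 h and 204, 171, and 176 in Δ*nsd3*. WT was higher at 8 h (−1.84 ± 0.13) and on glycerol (−1.94 ± 0.45) and lower at 48 h (1.59 ± 0.33). None of the 10 genes that met the limits at these times alone stayed in the set with each library left out in turn.

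Genes lower on glycerol and higher on cellulose numbered 13 at 48 h and 4 at 8 h. TRIREDRAFT_120004 had 239, 222, and 213 TPM in WT on glycerol and 66.4, 67.4, and 61.6 in Δ*nsd3*. At 48 h it had 26.7, 16.5, and 75.0 TPM in WT and 145, 182, and 199 in Δ*nsd3*. The differences were −1.77 ± 0.06 and 2.39 ± 0.64, the latter 1.93 without WT replicate 2. In WT this gene was highest on glycerol, and in the Δ*nsd3* strain at 48 h.

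TRIREDRAFT_66935 had 71.9, 71.9, and 68.5 TPM in WT on glycerol and 21.7, 26.2, and 17.0 in Δ*nsd3*. After 48 h the libraries had 41.6, 56.6, and 87.8 TPM in WT and 139, 186, and 239 in Δ*nsd3*. The differences of −1.68 ± 0.17 and 1.62 ± 0.38 stood with or without WT replicate 2, the latter being 1.58 without it. TRIREDRAFT_68086 was lower on glycerol (−1.46 ± 0.18) and higher at 8 h (1.49 ± 0.60) and 48 h (2.21 ± 0.74). TRIREDRAFT_122124 was lower on glycerol (−1.21 ± 0.23) and higher at 8 h (1.65 ± 0.32), with 24.9, 31.4, and 49.7 TPM in WT and 96.2, 101, and 131 in Δ*nsd3* at 8 h. In each of these 3 genes the libraries of the strains did not overlap in the conditions given, as the rule requires.

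A smaller group was higher in the Δ*nsd3* strain on glucose. TRIREDRAFT_109239 had 129, 177, and 209 TPM in WT on glucose and 794, 878, and 920.0 in Δ*nsd3*. At 48 h levels were 29.8, 29.4, and 32.7 TPM in WT and 8.01, 8.36, and 4.86 in Δ*nsd3*. Its differences were 2.35 ± 0.21 and −2.00 ± 0.22, with smaller ones on glycerol (−0.31) and at 8 h (−0.57). In the Δ*nsd3* strain the level on glucose was thus far above that in the other conditions, and glucose was also the highest condition of WT, by a smaller margin.

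TRIREDRAFT_61227 differed in the same directions, with 6.70, 6.36, and 3.26 TPM in WT on glucose against 36.1, 34.1, and 32.7 in Δ*nsd3*. At 48 h it had 37.0, 11.4, and 27.3 TPM in WT and 6.68, 6.18, and 5.28 in Δ*nsd3*. The differences were 2.501 ± 0.28 and −1.76 ± 0.49, so the Δ*nsd3* strain had its highest level on glucose and WT at 48 h. TRIREDRAFT_67597, at no more than 12.3 TPM, had differences of 2.41 ± 0.25 and −2.26 ± 0.92. It was near 0 in both strains on glycerol and at 8 h, with at most 0.133 TPM.

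TRIREDRAFT_106538 was the most abundant gene of the set. After 48 h the libraries had 10819, 15126, and 8662 TPM in WT and 5457, 4258, and 3237 in Δ*nsd3*. On glucose, where it was nearly absent, WT had 1.68, 0.603, and 0.164 TPM and the Δ*nsd3* strain 10.6, 9.93, and 13.2. The differences were 2.83 ± 0.37 on glucose, −1.01 ± 0.28 at 8 h, and −1.41 ± 0.32 at 48 h. Both strains thus had the same order of conditions, with a narrower range in the Δ*nsd3* strain. TRIREDRAFT_52476 was similar, with differences of 1.11 ± 0.31 on glucose and −1.22 ± 0.30 at 8 h, but left the set without WT replicate 3 on glucose. TRIREDRAFT_104251 had 323, 346, and 329 TPM in WT on glucose and 670.1, 722, and 825 in Δ*nsd3*. On glycerol it had 28.0, 43.3, and 67.9 TPM in WT and 14.4, 11.3, and 15.96 in Δ*nsd3*. Its differences of 1.14 ± 0.09 and −1.59 ± 0.39 widened the range instead, both strains being highest on glucose.

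Both members of the set with a chitinase symbol, of 17 genes with a chi18 symbol in the table, belong to glycoside hydrolase family 18, whose enzymes cleave chitin. *chi18-2* (TRIREDRAFT_59082), looked at after its values were seen, had differences of −1.84 on glycerol and 1.88 at 48 h but was not in the set, since libraries of the strains overlapped at 48 h. *chi18-7* (TRIREDRAFT_81598) had 401, 467, and 422 TPM in WT on glycerol and 195, 214, and 191 in Δ*nsd3*. At 48 h levels were 118, 154, and 251 TPM in WT and 291, 376, and 377 in Δ*nsd3*. The differences were −1.10 ± 0.08 and 1.05 ± 0.34, the latter so close to the limit that *chi18-7* left the set after any of 3 libraries at 48 h was left out. *chit18-11* (TRIREDRAFT_56448) had 0.363, 0.573, and 0.807 TPM in WT on glucose and 2.18, 3.47, and 2.45 in Δ*nsd3*. At 8 h it had 2.09, 2.48, and 1.66 TPM in WT and 0.660, 0.244, and 0.548 in Δ*nsd3*. These levels rest on an estimated 1.98 to 129 reads over the 24 libraries. The differences were 1.22 ± 0.19 and −1.05 ± 0.17, and *chit18-11* left the set after rescaling and without replicate 2 of either strain at 8 h.

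Each of the 156 combinations can also be read as the change of each strain from the condition where the Δ*nsd3* strain was lower to the one where it was higher. WT was lower by 1 or more on the log2 scale while the Δ*nsd3* strain stayed within 1 in 58 combinations. In 39 WT was lower and the Δ*nsd3* strain higher, each by 1 or more. The Δ*nsd3* strain alone was higher in 33, both strains were lower in 16, and both were higher in 10. The rule fixes that the Δ*nsd3* strain lies above WT in this comparison by 2 or more, so the spread along the diagonal is what it leaves free. *cro1*, with a WT change of −3.69 and a Δ*nsd3* change of 0.62 from glucose to 48 h, is a case of the first kind, and TRIREDRAFT_106538 of both strains changing together.

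**Figure D4:**
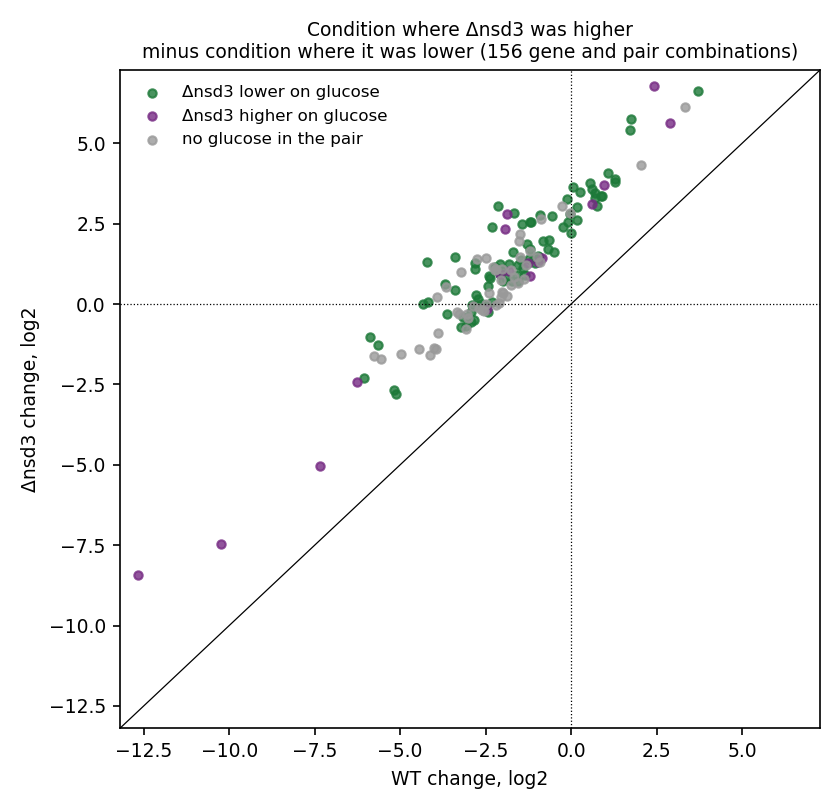
Change of WT (horizontal axis) and of the Δ*nsd3* strain (vertical axis), in mean log2(TPM + 1), from the condition where the Δ*nsd3* strain was lower than WT to the one where it was higher, for 156 combinations. All points lie above the diagonal by the rule, and the upper left part, where WT was lower and the Δ*nsd3* strain higher, holds the 39 combinations with opposite changes of 1 or more among others.

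The condition in which a gene was highest was the same in both strains in 45 of the 117 genes (38.5%), against 49.6% of all genes tested, and after rescaling by the median of ratios these shares were 42.7% and 55.6%. WT was highest on glucose in 43 of the genes (36.8%), on glycerol in 27 (23.1%), at 8 h in 26 (22.2%), and at 48 h in 21 (17.9%), against 26.2%, 9.40%, 39.0%, and 25.4% of all genes tested. For the Δ*nsd3* strain the numbers were 27 (23.1%), 18 (15.4%), 31 (26.5%), and 41 (35.04%), against 23.5%, 22.8%, 22.9%, and 30.9%. After rescaling, WT was highest in these conditions in 45, 31, 20, and 21 of the genes, against 30.7%, 21.1%, 21.1%, and 27.1% of all genes tested. For the Δ*nsd3* strain the numbers were then 38 (32.5%), 15 (12.8%), 28 (23.9%), and 36 (30.8%), against 37.3%, 18.2%, 18.7%, and 25.8%. The commonest condition of the Δ*nsd3* strain thus turned from 48 h to glucose, both in the set and over all genes tested. The median range over the conditions, in log2(TPM + 1), was 2.69 in WT and 1.96 in Δ*nsd3*, and 1.16 and 0.97 over all genes tested. The range was larger in WT than in the Δ*nsd3* strain in 76 of the 117 genes (65.0%), a share near that of all genes tested (62.9%). The rule used differences between the strains' levels, so these are descriptions.

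The genes differed widely in abundance. The mean TPM over 24 libraries lay between 0.475 and 2021, with a median of 52.4, against 21.4 over all genes tested. It was under 10 in 22 genes and over 100 in 40. The median pooled SD between replicates was 0.36 on the log2 scale, against 0.24. Median gene length was 1380 bp, against 1533 bp. All 117 genes passed the filter of 1 TPM in at least 3 libraries.

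The response to the carbon source averaged over both strains was not used directly by the rule, although the rule bears on it, as given below. It was tested with limma across all genes. Differentially expressed genes (DEGs) were defined by an adjusted p-value under 0.05 and an absolute log2 change of 1 or more. On glycerol against glucose 65 of the 117 genes were DEGs, where 19.6% of all genes tested were. Of these, 32 were upregulated (10.8% of all genes) and 33 downregulated (8.71%). At 8 h on cellulose against glucose 69 were DEGs, against 31% of all genes, with 39 upregulated (22.7%) and 30 downregulated (8.34%). At 8 h against glycerol 36 were DEGs, against 13.5%, with 25 upregulated (10.8%) and 11 downregulated (2.71%). At 48 h against 8 h 39 were DEGs, against 9%, with 20 upregulated (4.66%) and 19 downregulated (4.34%). In all 4 comparisons the share was thus above the background, with median absolute log2 changes of 1.13, 1.22, 0.65, and 0.68 in the order given, against 0.45, 0.64, 0.40, and 0.29 over all genes tested. The rule favors genes abundant enough to move by 1 in log2(TPM + 1), and the background was not matched for this. The median of mean TPM was 52.4, against 21.4 over all genes tested. Part of the excess may thus come from the selection, which was not tested. The comparisons share conditions and are not independent of each other.

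The split of directions depended on scaling. After rescaling by the median of ratios, 30 genes were upregulated and 35 downregulated at 8 h against glucose, and 22 and 18 at 8 h against glycerol. Quantile normalization gave 30 and 40 in the first comparison and 21 and 20 in the second. At 48 h against 8 h 20 were then upregulated and 13 downregulated. Shares over all genes tested were not computed under these scalings. Whether the split moved in the set or in all genes alike can therefore not be told. Of the 117 genes, 94 were DEGs in at least 1 comparison and 5 in all 4, and 23 in none. The same counts are not given for all genes tested, so whether these numbers are unusual cannot be told.

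Several of the genes already named had large changes when averaged over the strains. TRIREDRAFT_106538 rose from 8 h to 48 h by 6.22 ± 0.22 (SE) in log2 (limma adjusted p = 1.5e-16), with all 6 libraries at 48 h above all 6 at 8 h. TRIREDRAFT_54227 rose from glycerol to 8 h by 4.56 ± 0.19 (limma adjusted p = 2.7e-15) and again from 8 h to 48 h by 3.68 ± 0.19 (limma adjusted p = 2.4e-13). For TRIREDRAFT_54227 the level at 8 h minus that at 48 h was −5.76 in WT but −1.60 in the Δ*nsd3* strain. Its average thus covers unlike changes. Both genes were higher at 48 h than at 8 h in either strain. The strain difference of TRIREDRAFT_54227 changed sign between these times, from 1.61 to −2.54. For TRIREDRAFT_106538 it was negative at both, −1.01 and −1.41, and positive only on glucose among the differences that met the limits. TRIREDRAFT_104251 was lower on glycerol than on glucose by a log2 change of −4.27 ± 0.19 (limma adjusted p = 6.4e-15), and TRIREDRAFT_109239 by −4.96 ± 0.17 (limma adjusted p = 8.8e-17). TRIREDRAFT_66935 was higher on glycerol than on glucose by 3.82 ± 0.18 (limma adjusted p = 3.0e-14).

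TRIREDRAFT_68086 was among the 23 genes without a DEG call. Averaged over the strains, its log2 change was −0.16 ± 0.30 from glucose to glycerol and 0.36 ± 0.30 from 8 h to 48 h (limma adjusted p = 0.66 and 0.36). *chi18-7* was another, with a change of −0.47 ± 0.16 from glycerol to 8 h (limma adjusted p = 0.017), past the p-value but short of a log2 change of 1. *cro1* was downregulated at 8 h against glucose, by a log2 change of −1.39 ± 0.21 (limma adjusted p = 3.0e-06).

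Among the 117 genes, 10 formed 5 pairs of direct neighbours in the gene order of the RefSeq table, and the members of each pair shared at least 1 pair of conditions. TRIREDRAFT_44747 and TRIREDRAFT_42752, 574 bp apart, were both lower on glycerol (−1.86 and −1.50) and higher at 48 h (1.24 and 2.68). TRIREDRAFT_42752 had 110.5, 3.37, and 127 TPM in WT at 48 h, and its difference was 1.09 without replicate 2, whereas TRIREDRAFT_44747 left the set. TRIREDRAFT_67778 and TRIREDRAFT_123468, 644 bp apart, were lower on glucose (−1.45 and −1.09) and higher at 8 h (1.22 and 1.41). *chit18-11* and TRIREDRAFT_104584, 2248 bp apart, were higher on glucose (1.22 and 1.24) and lower at 8 h (−1.05 and −1.63). The other pairs, TRIREDRAFT_62985 with TRIREDRAFT_48819 and TRIREDRAFT_76247 with TRIREDRAFT_76249, were 4371 and 13943 bp apart. The table names no scaffolds, so their ends were inferred from where start positions fell back, and neighbours and distances rest on that. Strand was not given, and no test was made of the number of pairs.

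The limit of 1 on the log2 scale lies in a dense part of the distribution. Without a limit on size, 2512 genes had strain differences of opposite sign without overlap in 2 conditions. In 43 of the 117 genes the smaller of the opposite differences was between 1 and 1.1, while 49 genes outside the set had one between 0.9 and 1. Just inside were TRIREDRAFT_76249, TRIREDRAFT_111517, and TRIREDRAFT_111494, with 1.001, 1.003, and 1.01, and just outside TRIREDRAFT_107960, TRIREDRAFT_119980, and TRIREDRAFT_108164, with 0.9994, 0.9993, and 0.998. The smaller difference was 1.5 or more in 22 genes and 2 or more in 3. However the libraries were left out one at a time, 54 of the 117 genes stayed in the set, and 35 of them also stayed under both other scalings and both other pseudocounts. Among these 35 were *cro1*, TRIREDRAFT_46285, TRIREDRAFT_54227, TRIREDRAFT_60616, TRIREDRAFT_111442, and TRIREDRAFT_112125.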

How the data were processed

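Polyadenylated RNA of 24 *T. reesei* cultures (2 strains, 4 conditions, 3 libraries each) had been sequenced. The deposited values are TPM, calculated by the authors for 8755 genes. They trimmed reads with Trim Galore 0.6.7, mapped them with HISAT2 2.2.1, and counted them with featureCounts, and the tool that made TPM is not given in the sources used here. TPM cannot be given to a count model. Since TPM is relative, a gene that takes a large share lowers all others. P-values measure only the spread between these libraries, which may be partly technical.

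TPM was set to log2(TPM + 1). The genes and lists were chosen with earlier results of these data known. Changes of carbon source were tested with limma in the 7933 genes that reached 1 TPM in 3 or more libraries, with a mean per group, eBayes with an intensity trend, and Benjamini-Hochberg adjustment. The contrasts averaged the strains, which makes them orthogonal to the strain differences if the spread is equal, and the noisier WT at 48 h departs from that. This concerns the noise only, and not the link between the strains' changes that the rule sets. In simulated data of 7933 genes with 200 changed, limma recovered 199 at 8 h against glycerol, 199 at 48 h against 8 h, and 200 at 8 h against glucose, with 0, 0, and 1 false calls. The changes were planted at 8 h alike in both strains, with the same spread in every group. Recovery with opposite strain effects or with a noisier WT at 48 h was therefore not tested.

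Depth came from the step between low TPM values, 63.2% to 81.7% of which fell within 0.1 of a whole read. An estimate of 0 reads allows up to 3, for counting error only. Genes were named where they had the largest of the smaller opposite differences in a pair of conditions (up to 3), met the limits in 3 or 4 conditions (up to 4), had a symbol, or lay next to the limit. TRIREDRAFT_42752, TRIREDRAFT_44747, TRIREDRAFT_48819, TRIREDRAFT_54219, TRIREDRAFT_60616, TRIREDRAFT_76247, TRIREDRAFT_106538, TRIREDRAFT_123261, and TRIREDRAFT_123648 were chosen after their values were seen or as neighbours. Neighbours came from the RefSeq table of assembly v2.0, which holds 8750 of the identifiers and a symbol for 225. Same-numbered libraries of the strains deviated together (correlations over 0.1 in all 3 pairs) on glycerol (0.114, 0.197, and 0.202) and at 48 h (0.214, 0.174, and 0.291), but not on glucose or at 8 h. Alternatives were pseudocounts of 0.1 and 5, 2 other scalings, filters, limits of 0.8 and 1.5, a replicate block, other fits, and each library left out in turn. Python 3.11.15, R 4.3.3, and limma 3.58.1 were used.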

Additional observations from a re-analysis of the deposited data

Results flagged for a closer look

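Each pair of conditions with strain effects of opposite sign meets the criterion of a difference between groups in which all libraries move one way in one condition and the opposite way in the other. The difference was not tested, because the genes had been chosen by it. The Δ*nsd3* strain was higher at 48 h and lower on glucose in 41 genes, higher at 8 h and lower on glucose in 28, and higher on glycerol and lower on glucose in 18. It was higher at 48 h and lower on glycerol in 13, higher at 48 h and lower at 8 h in 12, and higher on glycerol and lower at 48 h in 12. It was higher at 8 h and lower at 48 h in 7, higher on glucose and lower at 48 h in 7, and higher on glucose and lower at 8 h in 6. The pairs of glucose over glycerol, glycerol over 8 h, and 8 h over glycerol had 4 genes each. The share of TPM held by *hfb2* and WT replicate 2 at 48 h moved with several of these counts, and their part in them was not tested beyond the values given with and without them.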

How the results depend on the processing

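The number of genes in the set followed the choice of scale and limit. It was 117, 219 with a pseudocount of 0.1, 61 with a pseudocount of 5, 22 with a limit of 1.5, and 250 with a limit of 0.8. It was 115 after rescaling by the median of ratios (82 shared), 101 after quantile normalization (78 shared), 114 with a filter of 5 TPM, and 124 when the same direction in numbered pairs (a replicate block) replaced the absence of overlap. With 1 library left out in turn it lay between 94, without WT replicate 2 at 48 h (90 shared), and 139, without WT replicate 3 at 48 h. Chosen after seeing the data, leaving out *hfb2* gave 111 genes (95 shared), and leaving out WT replicate 2 at 48 h with Δ*nsd3* replicate 3 on glycerol gave 97 (88 shared). The numbers of DEGs between carbon sources stayed within 1.5 times of 65, 36, 39, and 69 under all alternatives run, and the replicate block gave the same 65, 36, 39, and 69. With each library left out they were 64 to 67 for glycerol against glucose, 35 to 38 for 8 h against glycerol, 29 to 43 for 48 h against 8 h, and 67 to 70 for 8 h against glucose. Of 4440 recomputed strain differences of 37 named genes, 0 reversed where the limits had been met and 87 moved beyond the spread between replicates. Leaving out a library alters only the differences of its own condition. Many of the 4440 could therefore not move, and the 87 are not a share of those that could. Low counts limit *chit18-11* and other genes of under 10 TPM.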
